A study of Mus musculus with 4 samples.

Results

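Mast cells store large amounts of protease in their granules, and the 10 genes described here encode those enzymes together with receptors of the mast cell and of its blood relative, the basophil. They are Mcpt1, Mcpt2, Mcpt4, Mcpt8, Cma1, Cpa3, Tpsb2, Tpsab1, Kit and Ms4a2, taken by symbol from the 24391 genes counted in each sample. They were chosen by a rule written with the read counts of these same samples already known, the mucosal and connective tissue contrast between the groups included, so the differences between the groups are given as a description and not as a test.

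The samples were mouse lung tumours, 2 in each of 2 groups. The group called K-Ras carried the K-RasLSL-G12D allele, an oncogenic K-Ras that is silent until Cre recombinase removes a stop cassette. The group called K-Ras Mll4-/- carried that allele and also Mll4fl/fl, floxed alleles of Mll4 (now named Kmt2d), an enhancer-associated histone H3 lysine methyltransferase. All 4 tumours thus shared the K-Ras allele, and all had been digested to single cells and depleted of cells bearing CD45, the pan-leukocyte antigen. The source of Cre, the strain, the age, and whether replicates came from separate mice are not given in the sources used here, so p-values measure only the spread between these samples.

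Mouse mast cells fall into a mucosal type, which sits in and under epithelium and makes the chymases Mcpt1 and Mcpt2, and a connective tissue type, which makes the chymases Mcpt4 and Cma1 and the tryptase Tpsb2. Both types carry Kit, the receptor for stem cell factor, and the high-affinity IgE receptor, whose beta chain is Ms4a2. Mature mast cells bear CD45, the antigen that the depletion targeted, and how much mast cell RNA it removed was not tested.

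Reads assigned to genes numbered 26683033 to 36677987 per sample, and 3 reads, the smallest number taken to show a transcript, correspond to between 0.0818 and 0.112 CPM, a gene's reads scaled to a fixed total per sample. The targeted gene Kmt2d was at 395 and 526 CPM in the K-Ras samples and at 367 and 317 CPM in the K-Ras Mll4-/- samples, so transcript from the locus was present in both groups, and whole-gene counts do not resolve a deleted exon. Ptprc, which encodes CD45, was at 274 and 143 CPM in the K-Ras samples and 269 and 171 CPM in the K-Ras Mll4-/- samples, so RNA of CD45-bearing cells was present in every sample after depletion. Of the 16001 genes that passed the default count filter of edgeR, 6 were called by its quasi-likelihood test at an adjusted p under 0.05, all higher in K-Ras Mll4-/-. No gene was called when K-Ras replicate 2 or either K-Ras Mll4-/- sample was left out, and 528 were called without K-Ras replicate 1.

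Among the members, Cma1, Mcpt1, Mcpt2, Mcpt4 and Mcpt8 lie in 1 gene cluster on chromosome 14. The 250 bases before the annotated start of 4 of them are printed because these neighbours had very different levels in the same samples (RefSeq, GRCm38.p6, gene strand, 5′ to 3′). Capitals mark TGATAA, which with AGATAA was searched on both strands as a form of the motif of GATA factors, the family of the mast cell regulator Gata2. Mcpt1 is shown from chr14:56017714-56017963, plus strand. Mcpt4 is shown from chr14:56062311-56062560, minus strand. Mcpt8 is shown from chr14:56085198-56085447, minus strand. Cma1 is shown from chr14:55944676-55944925, minus strand.
Mcpt1: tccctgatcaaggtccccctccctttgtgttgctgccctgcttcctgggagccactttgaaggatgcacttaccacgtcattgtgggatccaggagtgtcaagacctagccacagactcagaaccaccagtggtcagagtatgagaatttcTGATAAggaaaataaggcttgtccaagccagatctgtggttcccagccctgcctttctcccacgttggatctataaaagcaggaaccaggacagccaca
Mcpt4: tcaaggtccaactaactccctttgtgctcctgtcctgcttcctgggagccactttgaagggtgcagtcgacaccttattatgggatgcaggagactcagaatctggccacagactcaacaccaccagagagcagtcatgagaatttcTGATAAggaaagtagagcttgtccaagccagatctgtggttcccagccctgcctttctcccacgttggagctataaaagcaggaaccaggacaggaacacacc
Mcpt8: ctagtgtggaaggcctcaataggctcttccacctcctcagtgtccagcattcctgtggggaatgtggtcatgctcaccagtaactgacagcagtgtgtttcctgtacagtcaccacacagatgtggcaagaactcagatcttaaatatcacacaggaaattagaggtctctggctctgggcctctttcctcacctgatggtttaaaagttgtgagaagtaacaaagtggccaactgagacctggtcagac
Cma1: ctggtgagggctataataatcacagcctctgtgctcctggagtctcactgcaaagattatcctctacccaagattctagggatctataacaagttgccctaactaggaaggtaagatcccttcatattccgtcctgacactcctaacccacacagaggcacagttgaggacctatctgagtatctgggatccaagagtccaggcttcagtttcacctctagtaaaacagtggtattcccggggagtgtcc

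The windows of Mcpt1 and Mcpt4 were close copies of each other. Of the 250 bases, 207 (82.8%) were identical in a global alignment, and over the 120 bases nearest the start the identity was 89.2%. The other 20 pairs among the 7 members with a promoter entry aligned at 38.8% to 55.2%. Both Mcpt1 and Mcpt4 had 1 TGATAA, beginning 99 and 103 bases before the start. The windows of Mcpt8 and Cma1 held neither form. Cpa3 had 1 AGATAA beginning 46 bases before its start, and Ms4a2 had 3 matches. Of all 27025 promoters in the table, 17.0% held at least 1 of these 2 forms in the same window. A match is a run of letters and says nothing about binding.

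The mucosal chymases were the members that differed most between the groups. Mcpt1, a chymase stored by mast cells of gut and airway epithelium, had 31 and 33 reads in the K-Ras samples and 38096 and 10043 in the K-Ras Mll4-/- samples. As CPM with the TMM normalisation of edgeR, which corrects library size for composition, that was 1.01 and 0.913 against 1451 and 312. Both K-Ras samples were near the bottom of the expressed range, and both K-Ras Mll4-/- samples lay far above them, with replicate 1 at 4.66 times replicate 2. The group means were 0.963 ± 0.0711 and 881 ± 806 CPM (SD, n = 2 each), a ratio of 915, and the fitted log2 fold change was 9.83 (SE 1.09). It was 8.34 without K-Ras Mll4-/- replicate 1 and 10.55 without replicate 2 of that group. Mcpt1 ranked 41 by read count among all genes in K-Ras Mll4-/- replicate 1 and 487 in replicate 2, against 14382 and 14620 in the K-Ras samples. It took 0.143% of all gene reads in K-Ras Mll4-/- replicate 1 (exact 95% interval 0.141% to 0.144%) and 0.0305% in replicate 2 (0.0299% to 0.0311%). Intervals of this kind cover counting error only.

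Mcpt2, the chymase encoded next to Mcpt1, followed the same pattern at a lower level. It was at 1.21 and 0.360 CPM in the K-Ras samples and at 431 and 93.1 CPM in the K-Ras Mll4-/- samples. The groups did not overlap, and replicate 1 of K-Ras Mll4-/- was again the higher, at 4.64 times replicate 2. The means were 0.785 ± 0.601 and 262 ± 239 CPM (SD, n = 2 each), with a fitted log2 fold change of 8.41 (SE 1.18). It ranged from 6.91 without K-Ras Mll4-/- replicate 1 to 9.50 without K-Ras replicate 1. Among the 16001 genes tested, Mcpt1 ranked 5 and Mcpt2 ranked 11 by log2 fold change from the highest.

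The ratio of the mucosal pair was nearly the same in the K-Ras Mll4-/- samples although their levels were not. Reads of Mcpt1 per read of Mcpt2 were 3.36 in replicate 1 (exact 95% interval 3.29 to 3.43) and 3.35 in replicate 2 (3.21 to 3.49). In the K-Ras samples the ratio was 0.838 (0.503 to 1.39) and 2.54 (1.30 to 5.26), from 68 and 46 reads of the pair. Per length, with CPM divided by kilobases of exon, Mcpt1 was at 1431 and 307 and Mcpt2 at 407 and 87.7 in the K-Ras Mll4-/- samples. The GENCODE M21 transcripts of Mcpt1 and Mcpt2 shared no stretch of 50 bases with a transcript of any other gene, so the counts of one could not come from exact copies of the other at that length. In RefSeq the extent of Mcpt2 spans Mcpt9 on the same chromosome, but Mcpt9 held at most 2 reads in any sample.

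**Figure D1:**
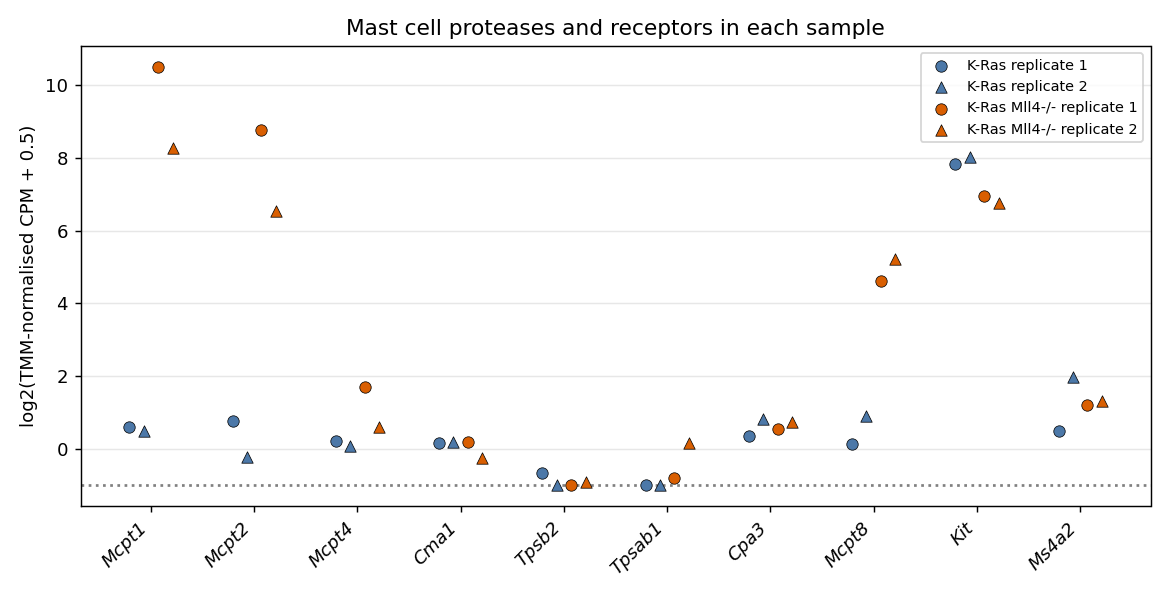
Each point is 1 sample, with log2(TMM-normalised CPM + 0.5) on the vertical axis and the 10 genes along the horizontal axis. Blue marks K-Ras and orange K-Ras Mll4-/-, circles mark replicate 1 and triangles replicate 2, and the dotted line is a CPM of 0. Mcpt1, Mcpt2 and Mcpt8 stand far apart between the groups, while Cma1, Cpa3 and Ms4a2 overlap.

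The connective tissue chymases stayed near the bottom of the measured range in all samples. Mcpt4, a chymase of connective tissue mast cells, was at 0.654 and 0.553 CPM in the K-Ras samples and at 2.78 and 1.02 CPM in the K-Ras Mll4-/- samples. The groups did not overlap, with means of 0.604 ± 0.0711 and 1.90 ± 1.24 CPM (SD, n = 2 each) and a fitted log2 fold change of 1.64 (SE 0.62), which was 0.77 without K-Ras Mll4-/- replicate 1. Mcpt4 shared 5.48% of its 50-base stretches with other genes, mainly Cma2. Its near-copy of the Mcpt1 promoter window thus went with at most 73 reads in a sample where Mcpt1 had 38096.

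Cma1, the chymase also called Mcpt5, was at 0.621 and 0.636 CPM in the K-Ras samples and at 0.647 and 0.341 CPM in the K-Ras Mll4-/- samples. The groups overlapped, and the log2 fold change of -0.36 (SE 0.52) became 0.03 without K-Ras Mll4-/- replicate 2. Cma1 shared 5.38% of its stretches with the gene model Gm48934.

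The tryptases, trypsin-like granule enzymes, were nearly unread and did not pass the count filter. Tpsb2 had 4 and 0 reads in the K-Ras samples and 0 and 1 in the K-Ras Mll4-/- samples, too few for a fold change. Tpsab1, which RefSeq lists as a transcribed pseudogene in the reference strain C57BL/6J, had 0 reads in both K-Ras samples and 2 and 20 reads in the K-Ras Mll4-/- samples. Over the group, this was at least 8.37-fold higher than the 3 reads that a count of 0 allows over both K-Ras samples together, and 1 sample held 20 of the 22 reads.

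The contrast between the types was read within each sample. Summed over Mcpt1 and Mcpt2, the mucosal level was 2.22 and 1.27 CPM in the K-Ras samples and 1882 and 405 CPM in the K-Ras Mll4-/- samples. Summed over Mcpt4, Cma1 and Tpsb2, the connective tissue level was 1.41 and 1.19 CPM in the K-Ras samples and 3.43 and 1.396 CPM in the K-Ras Mll4-/- samples. The mucosal sums of the groups thus lay far apart, while the connective tissue sum of K-Ras Mll4-/- replicate 2 was below that of K-Ras replicate 1.

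Of the reads of both types, the mucosal genes took 61.3% in K-Ras replicate 1 (exact 95% interval 51.5% to 70.4%) and 51.7% in K-Ras replicate 2 (40.8% to 62.4%). In K-Ras Mll4-/- they took 99.8% in replicate 1 (99.8% to 99.9%) and 99.7% in replicate 2 (99.5% to 99.7%). The K-Ras shares rested on only 111 and 89 reads, and the interval of replicate 1 lay above an even split. In K-Ras Mll4-/- the mucosal genes held nearly all of the reads. As a mean of log2(CPM + 0.5) over the genes of a type, the mucosal level differed by 8.11 between the groups and the connective tissue level by 0.23, which was -0.01 without K-Ras Mll4-/- replicate 1. The within-sample difference of the types was 0.59 ± 0.28 in K-Ras and 8.46 ± 1.22 in K-Ras Mll4-/- (SD, n = 2 each).

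**Figure D2:**
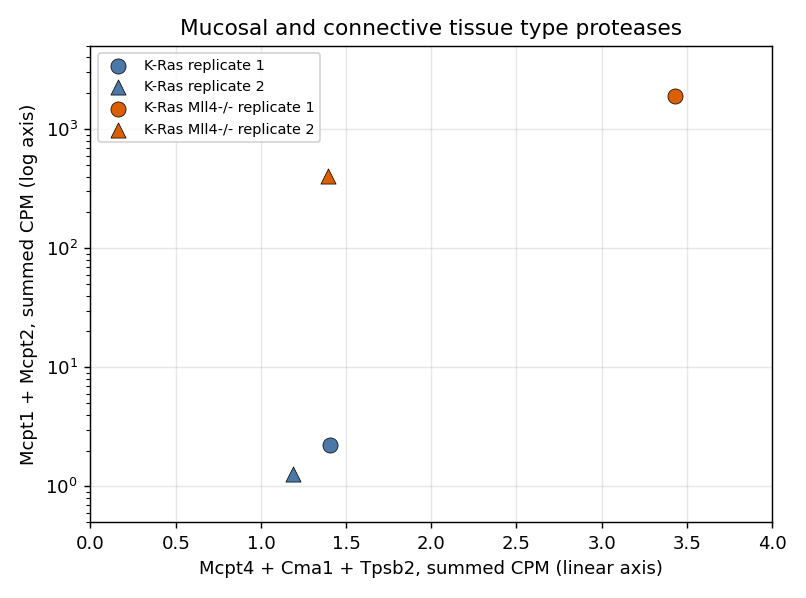
Each point is 1 sample, with the summed TMM-normalised CPM of Mcpt4, Cma1 and Tpsb2 on a linear horizontal axis and that of Mcpt1 and Mcpt2 on a logarithmic vertical axis. The K-Ras Mll4-/- samples (orange) sit at 1882 and 405 CPM on the vertical axis and the K-Ras samples (blue) at 2.22 and 1.27 CPM, while 3 of the 4 samples lie between 1.19 and 1.41 CPM on the horizontal axis.

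Cpa3, a carboxypeptidase of mast cell granules, did not move with the mucosal chymases. It was at 0.785 and 1.27 CPM in the K-Ras samples and at 0.952 and 1.18 CPM in the K-Ras Mll4-/- samples, from 24 to 46 reads each. The K-Ras Mll4-/- values lay between the K-Ras values, and the log2 fold change of 0.05 (SE 0.45) was -0.25 without K-Ras replicate 1, 0.43 without K-Ras replicate 2 and -0.00 with upper-quartile scaling. There were 1.29 and 0.717 reads of Mcpt1 per read of Cpa3 in the K-Ras samples, against 1524 and 264 in the K-Ras Mll4-/- samples (exact 95% intervals 1032 to 2355 and 192 to 374). In bulk tissue, fewer cells of a type and less RNA per cell cannot be told apart.

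Mcpt8, a granule protease that is made by basophils and not by most mast cells, was the third member with a large difference. It was at 0.589 and 1.38 CPM in the K-Ras samples and at 24.2 and 36.8 CPM in the K-Ras Mll4-/- samples. The groups did not overlap, and here replicate 2 was the higher in K-Ras Mll4-/-, the opposite order to Mcpt1 and Mcpt2. The means were 0.986 ± 0.562 and 30.5 ± 8.94 CPM (SD, n = 2 each), a ratio of 30.9, with a fitted log2 fold change of 4.93 (SE 0.51) that was 5.67 without K-Ras replicate 2.

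The other basophil markers were at lower levels or overlapped between the groups. Prss34, a basophil tryptase, had 5 and 3 reads in the K-Ras samples and 9 and 22 in the K-Ras Mll4-/- samples, with a log2 fold change of 2.06 (SE 0.70) that missed the threshold (edgeR quasi-likelihood adjusted p = 0.208). Cd200r3, an activating receptor of basophils and mast cells, was at 0.327 and 1.08 against 0.876 and 0.900 CPM. Il3ra, the interleukin-3 receptor alpha chain, was at 23.4 and 16.4 against 24.0 and 23.4 CPM. Summed over all 4 basophil markers, Mcpt8 included, the level was 18.9 to 24.5 CPM in K-Ras and 49.4 to 61.8 CPM in K-Ras Mll4-/-, and none of the 4 was at 0 in any sample. Without Mcpt8 the other 3 summed to 23.9 and 17.5 CPM in K-Ras and 25.2 and 25.0 CPM in K-Ras Mll4-/-, so most of the difference in the sum was that of Mcpt8 itself. The part of basophils in the Mcpt8 difference was not tested.

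Kit was the only tested member that was lower in both K-Ras Mll4-/- samples than in both K-Ras samples. It was at 226 and 258 CPM in K-Ras and at 123 and 109 CPM in K-Ras Mll4-/-, with means of 242 ± 22.5 and 116 ± 9.63 CPM (SD, n = 2 each). The K-Ras mean was 2.09 times the other, and the fitted log2 fold change of -1.07 (SE 0.15) lay between -1.15 and -0.98 when single samples were left out. Per kilobase of exon, Kit was at 25.4 and 29.0 CPM in K-Ras and 13.7 and 12.2 CPM in K-Ras Mll4-/-. In K-Ras it supplied 97.5% and 96.8% of the reads of the 10 members together, and in K-Ras Mll4-/- 6.02% and 19.6%.

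Kit is also made by cells other than mast cells, lung capillary endothelium among them. Of 5 endothelial markers, 3 were lower in the same samples with no overlap of the groups, against 28.5% of all genes tested. Summed over Pecam1, Cdh5, Kdr, Tek and Car4, the level was 3494 and 3664 CPM in K-Ras and 2620 and 2053 CPM in K-Ras Mll4-/-. Tek, the angiopoietin receptor, was at 435 and 512 against 279 and 249 CPM, a log2 fold change of -0.84 (edgeR quasi-likelihood adjusted p = 0.153). Pecam1 and Cdh5, which encode endothelial junction proteins, had log2 fold changes of -0.67 and -0.74 (edgeR quasi-likelihood adjusted p = 0.190 and 0.197). DESeq2 called these 3 genes lower, against 10.0% of all genes called in either direction. The edgeR likelihood ratio test called only Tek, against 9.39%, and limma-voom called 0. Kdr, the main receptor for vascular endothelial growth factor, overlapped between the groups at 597 and 383 against 510 and 361 CPM. Car4, a carbonic anhydrase of capillary endothelium, also overlapped, at 86.1 and 77.1 against 111 and 56.6 CPM (log2 fold change 0.04). None of the 5 was at 0 in any sample, and the part of endothelial RNA in the Kit difference was not tested. Melanocytes also carry Kit, and of their 5 markers 2 were tested, with 0 called by the edgeR quasi-likelihood test, against 0.0375% of all genes. Of the 2, 1 had an unadjusted p under 0.05, against 21.8% of all genes tested. Tyr and Tyrp1 had 0 reads in every sample. Mlana, a melanosome protein named after its values were seen, had 36 and 39 reads in K-Ras and 5 and 4 in K-Ras Mll4-/- (log2 fold change -2.83), and DESeq2 and the edgeR likelihood ratio test called it lower. Pmel, the other tested marker, had 56 and 72 reads in K-Ras and 66 and 59 in K-Ras Mll4-/-. Its CPM overlapped between the groups (log2 fold change 0.18). The part of melanocytes in the Kit difference was not tested.

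Ms4a2, the beta chain of the IgE receptor in mast cells and basophils, was at 0.916 and 3.43 CPM in K-Ras and at 1.83 and 1.99 CPM in K-Ras Mll4-/-. The K-Ras samples lay on either side of the others, and the log2 fold change of -0.19 (SE 0.69) was 1.04 without K-Ras replicate 2 and -0.84 without K-Ras replicate 1.

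**Figure D3:**
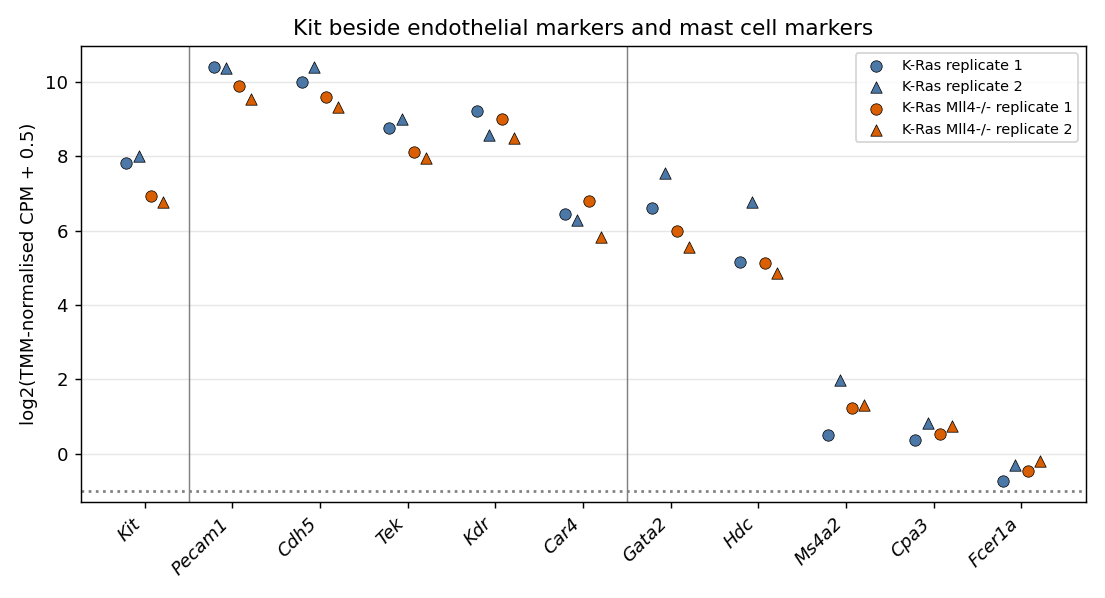
Each point is 1 sample, with log2(TMM-normalised CPM + 0.5) on the vertical axis, colours and shapes as by group and replicate in the legend, and the dotted line at a CPM of 0. Kit stands left of the first vertical line, 5 endothelial markers between the lines and other mast cell markers to the right. Kit, the endothelial markers Pecam1, Cdh5 and Tek, and the mast cell marker Gata2 are each lower in both K-Ras Mll4-/- samples. For Hdc, K-Ras replicate 1 (35.1 CPM) and K-Ras Mll4-/- replicate 1 (34.5 CPM) nearly coincide, and K-Ras replicate 2 stands above the rest. Kdr, Car4, Ms4a2 and Cpa3 overlap between the groups, and Cpa3 and Fcer1a lie near the bottom in all 4.

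Of the 10 members, 8 passed the count filter, and passing it can itself depend on a high level in 1 group. Of these 8, 0 were called by the edgeR quasi-likelihood test, against 0.0375% of all genes tested, and 5 had an unadjusted p under 0.05, against 21.8%. With the replicate number as a block it called 3 (Mcpt1, Mcpt2 and Mcpt8), against 1.36%. DESeq2 called 4 (Kit, Mcpt1, Mcpt2 and Mcpt8), against 10.0% of all genes, the edgeR likelihood ratio test called the same 4, against 9.39%, and limma-voom called 0, against 0.00%. In both K-Ras Mll4-/- samples 4 of the 8 were above both K-Ras samples, against 29.9% of all genes tested, and 1 was below, against 28.5%. A log2 fold change of 4 or more was seen in 3 of the 8, against 0.400%. It was above 0 in 5, against 48.8%, or in 4 when scaled by upper quartiles, against 6996 of the 16001 genes. The median over the 8 was 0.85, against -0.01 over all. These counts are printed for orientation, since the members were picked with this comparison known.

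The mast cell label was checked against 8 markers, Cpa3, Kit, Ms4a2, Fcer1a, Hdc, Gata2, Tpsb2 and Cma1. Their summed level was 361 and 558 CPM in K-Ras and 224 and 188 CPM in K-Ras Mll4-/-, most of it from Kit, Gata2 and Hdc, which other cells also express. Fcer1a, the alpha chain that binds IgE, had 3 and 11 reads in the K-Ras samples and 6 and 12 in the K-Ras Mll4-/- samples. Mrgprb2, the receptor through which basic peptides activate connective tissue mast cells, had 0 reads in 3 samples and 3 reads in K-Ras Mll4-/- replicate 1, and its relative Mrgprb1 had 0 reads in all 4. The markers Cpa3, Fcer1a and Ms4a2 were each at or below 3.43 CPM in every sample. So were Cma1 and Tpsb2, which belong to the connective tissue type and do not mark the mucosal type. Mcpt1 reached 1451 CPM in K-Ras Mll4-/- replicate 1. The cell source of the Mcpt1, Mcpt2 and Mcpt8 transcripts was not tested, and no cell type is assigned to them here.

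Genes that serve mast cell storage showed no shared direction. Of 7 genes for granule contents and amine storage, 6 were tested and 0 were called by the edgeR quasi-likelihood test or DESeq2, against 0.0375% and 10.0% of all genes. An unadjusted edgeR p under 0.05 was seen in 1, against 21.8% of all genes tested. Their median log2 fold change was -0.30. Hdc, which makes histamine, was at 35.1 and 109 CPM in K-Ras and 34.5 and 28.6 CPM in K-Ras Mll4-/-, so the group difference of -1.19 (log2, SE 0.56) came mainly from K-Ras replicate 2. Srgn, the proteoglycan core that holds proteases in granules, was at 242 and 171 against 146 and 109 CPM. Ndst2, which sulphates the heparin of those granules, was at 39.4 and 34.8 against 30.3 and 32.5 CPM. Cd63, a granule membrane tetraspanin found in many cells, was at 103 and 58.3 against 117 and 136 CPM.

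Of 10 receptors of mast cells, 6 were tested and 0 were called by the edgeR quasi-likelihood test or DESeq2, against 0.0375% and 10.0% of all genes. An unadjusted edgeR p under 0.05 was seen in 0, against 21.8% of all genes tested. Fcer1g, the shared signalling chain of Fc receptors, overlapped between the groups at 57.3 and 16.5 against 51.1 and 24.1 CPM. Il1rl1, the interleukin-33 receptor, was at 48.3 and 8.94 against 13.4 and 7.14 CPM, and Csf2rb, the common beta chain for interleukin-3, at 154 and 47.0 against 109 and 44.1 CPM. In each of these 3 receptors K-Ras replicate 1 was the highest sample. Macrophage markers, summed, were also highest there, at 899 CPM against 200 to 698 CPM in the other samples, and their part in those receptor levels was not tested.

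All 8 lineage transcription factors were tested, and 0 were called by the edgeR quasi-likelihood test, against 0.0375% of all genes. An unadjusted p under 0.05 was seen in 3, against 21.8% of all genes tested. DESeq2 called Gata2 and Tal1, both lower in K-Ras Mll4-/-, against 10.0% of all genes called in either direction. The edgeR likelihood ratio test called only Gata2, against 9.39%. Gata2, required for mast cells and also active in endothelium, was at 96.9 and 185 CPM in K-Ras and 62.9 and 46.6 CPM in K-Ras Mll4-/- (log2 fold change -1.37, edgeR quasi-likelihood adjusted p = 0.177). Runx1, a regulator of blood cell lineages also found in epithelium, was at 108 and 123 against 161 and 179 CPM. Tal1, a regulator of early blood cells, mast cells and endothelium, was at 33.8 and 32.3 against 22.2 and 17.8 CPM (log2 fold change -0.73, edgeR quasi-likelihood adjusted p = 0.163). Stat5b, a signal transducer of cytokine receptors, was at 80.9 and 73.1 against 66.8 and 54.3 CPM.

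Of 9 cytokines that feed or mature mast cells, 7 were tested and 0 were called by the edgeR quasi-likelihood test, against 0.0375% of all genes. An unadjusted p under 0.05 was seen in 2, Il33 and Il4, against 21.8% of all genes tested. DESeq2 called Il33, against 10.0% of all genes, and so did the edgeR likelihood ratio test, against 9.39%. Of the 7, 1 had a log2 fold change above 0 and 6 below, with a median of -0.29. Il4, named after its values were seen, had 17 and 14 reads in K-Ras and 3 and 4 in K-Ras Mll4-/- (log2 fold change -1.94). Il33, an epithelial and stromal alarmin, was at 106 and 124 CPM in K-Ras and 203 and 175 CPM in K-Ras Mll4-/- (log2 fold change 0.72, edgeR quasi-likelihood adjusted p = 0.157). Kitl, the ligand of Kit, was at 124 and 137 against 126 and 87.3 CPM. Tgfb1, which induces Mcpt1 in cultured mast cells, was at 65.3 and 53.4 against 56.0 and 45.1 CPM. Il9, which drives mucosal mast cell growth, had 0 reads in every sample, and Il3 had 1 read in all.

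Further lists were read as counts. None of 6 lipid mediator enzymes, 9 signalling genes or 4 mucosal homing integrins was called by the edgeR quasi-likelihood test, with 2, 3 and 0 at an unadjusted p under 0.05, and DESeq2 called 2, 2 and 0. Those 4 genes, named after the calls were seen, were the prostaglandin synthases Ptgs1 and Ptgs2 and the phospholipase Plcg1, lower in K-Ras Mll4-/-, and the vesicle GTPase Rab27b, higher there. Over all 83 tested list genes that are no member, 29 had a log2 fold change above 0 and 54 below, or 25 and 58 when scaled by library totals or upper quartiles. Over all genes tested, 7811 were above 0 and 8190 below. With library totals these were 7081 and 8920, and with upper quartiles 6996 and 9005. Markers of other cells that a tumour can hold were read the same way. The edgeR quasi-likelihood test called 0 of 6 tested markers of T and NK cells, 4 of B cells, 5 of macrophages, 4 of neutrophils, 3 of eosinophils and 5 of alveolar type 2 and tumour epithelium, with 2, 0, 0, 2, 0 and 1 at an unadjusted p under 0.05. Each of the 4 neutrophil markers was lower in K-Ras Mll4-/- with no overlap of the groups, against 28.5% of all genes tested, at a summed level of 206 and 65.0 CPM against 47.3 and 46.5 CPM. DESeq2 called Csf3r and Retnlg, both neutrophil markers, lower, and Cd8a of T cells and Epcam of epithelium higher, and the edgeR likelihood ratio test called these but Cd8a. A replicate block in edgeR called Csf3r of these genes. The median of the 83 list genes was -0.19, against -0.01 over all genes. The edgeR quasi-likelihood test called 0 of the 83, against 0.0375% of all genes, with 22 at an unadjusted p under 0.05, against 21.8%. DESeq2 called 16, 5 higher and 11 lower, against 10.0% of all genes, of which 804 were higher and 797 lower.

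Along the cluster on chromosome 14, high and low genes alternated. In the order of RefSeq, Cma1, Mcpt-ps1, Cma2 and Gm5801 were each at or below 1.34 CPM in all samples, followed by the high pair Mcpt1 and Mcpt2, then by Mcpt9 with at most 2 reads, Mcpt4 and the higher Mcpt8. Mcpt-ps1, a chymase pseudogene, had 2 and 0 reads in K-Ras and 15 and 1 reads in K-Ras Mll4-/-. Beyond Mcpt8, the cathepsin G gene Ctsg had at most 8 reads in any sample. Of the granzyme genes that end the cluster, Gzmc was at 0.719 and 0.553 CPM in K-Ras and 5.22 and 2.33 CPM in K-Ras Mll4-/- (log2 fold change 2.56, edgeR quasi-likelihood adjusted p = 0.156). DESeq2 and the edgeR likelihood ratio test called Gzmc higher, against 10.0% and 9.39% of all genes called in either direction. Gzme, singled out after its values were seen, was at 1.08 and 0.858 against 14.2 and 16.5 CPM, and 20.6% of its 50-base stretches were shared with Gzmd, Gzmg or Gzmc, so its count is uncertain to that extent. Gzmb, the granzyme of cytotoxic lymphocytes, overlapped between the groups at 15.8 and 7.33 against 12.7 and 10.02 CPM.

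**Figure D4:**
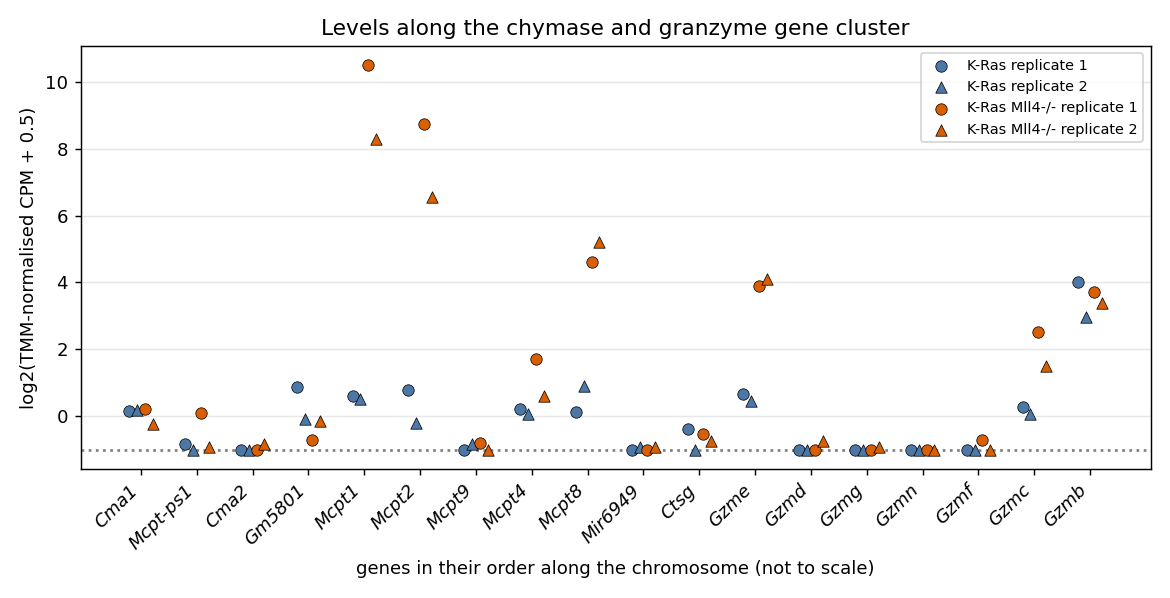
Genes are placed along the horizontal axis in their RefSeq order on chromosome 14, not to scale, with log2(TMM-normalised CPM + 0.5) of each sample on the vertical axis and the dotted line at a CPM of 0. Orange points (K-Ras Mll4-/-) stand apart from blue points (K-Ras) at Mcpt1, Mcpt2, Mcpt8, Gzme and Gzmc, with genes near 0 between them.

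The 5 genes outside the members listed next had the pattern nearest to the mean of Mcpt1 and Mcpt2 over the 4 samples, by Euclidean distance between log2(CPM + 0.5) values centred on their mean. Gkn2, a gastrokine of the stomach surface, was nearest at 2.40, followed by Onecut2, a homeobox transcription factor (2.70), and Gcnt3, an enzyme of mucin-type glycan branching (3.06). Gkn1, the other gastrokine (3.15), and Dpcr1, a mucin-like gene (3.15), came next. Mcpt8 stood at 4.31 and Mcpt1 itself at 0.80. Onecut2 was at 1.01 and 1.47 CPM in K-Ras and 136 and 45.9 CPM in K-Ras Mll4-/-. Gkn1 had 0 reads in both K-Ras samples and 785 and 254 in the K-Ras Mll4-/- samples, again with replicate 1 the higher. Gkn2 was at 317 and 384 CPM in the K-Ras Mll4-/- samples, with replicate 2 the higher. The order was the same in Gcnt3, at 111 and 129 CPM, and in Dpcr1, at 139 and 235 CPM.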

How the data were processed

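Each sample gave 1 file of raw read counts per gene symbol. Per the submitters' processing notes, the authors used CASAVA 1.4, STAR and HTSeq with genome mm9, and the deposited counts are not normalised. The gene annotation and strand setting are not given in the sources used here. The 5 closing tally lines, reads outside genes included, held 60.1% to 65.6% of the reads and were left out.

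Groups and replicate numbers came from the sample titles. Counts were fitted with edgeR 4.0.16 in R 4.3.3 (default count filter, TMM scaling, robust quasi-likelihood test, Benjamini-Hochberg adjustment over all 16001 genes tested, threshold 0.05). DESeq2 1.42.0 and limma 3.58.1 (voom) were alternatives. The standard error is the log2 fold change divided by the root of the F statistic. CPM are TMM-normalised unless a read count or share is named. The fit was also run on simulated counts in which every gene had the same small spread between replicates. Genes such as Mcpt1 varied more than that here, so the run does not show how the test performs on these samples. A rule named the 10 members, Kmt2d, Ptprc, the 5 genes of nearest pattern and, of lists described by name, every called gene and the 4 with the highest mean CPM. Other lists are given by counts, with genes that DESeq2 called in them named, and 1 gene of the lists described by name is not reported here. Other list genes named were fixed markers or, as Il4 and Pmel, were named after their values were seen. The members and the 17 lists were chosen with earlier results of these data known. Exon lengths and transcript stretches came from GENCODE M21, and promoters and gene order from RefSeq GRCm38.p6. The files use mm9, so the only coordinates given are those of the RefSeq promoter windows. Promoters were matched by symbol for 7 of the 10 members, all but Mcpt2, Tpsb2 and Tpsab1.

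Alternatives were other scalings, filters, tests and pseudocounts, a replicate block, other definitions of the types, and leaving out each sample. Their effects are in the closing section.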

Additional observations from a re-analysis of the deposited data

How the results depend on the processing

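The number of genes called depended on the test. Against 6, no count filter gave 44, DESeq2 gave 1601, the edgeR likelihood ratio test gave 1503 and limma-voom gave 0. With the replicate block it was 217, and 3 of the 8 tested members (Mcpt1, Mcpt2 and Mcpt8) were called, against 1.36% of all genes. The labels do not say what a replicate number shares, and samples numbered alike deviated together with r = 0.21 across genes over only 2 pairs. Leaving out 1 sample gave between 0 and 528, where the lone sample of a group is assumed to vary like the other group. The mucosal difference of 8.11 kept its size within the spread between replicates under every alternative run. The connective tissue difference of 0.23 was 0.60 as the log2 of the summed CPM and ranged from -0.01 without K-Ras Mll4-/- replicate 1 to 0.48 without replicate 2 of that group, and the difference between the types of 7.88 was 6.87 with a pseudocount of 2 CPM. Leaving Tpsb2 out of the connective tissue type was added after seeing the data. It gave a connective tissue difference of 0.41 and a difference between the types of 7.70.

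Signs that reversed among the named genes outside the members belonged to genes that were not called. With 1 sample left out, the log2 fold change of Csf2rb ranged from -1.18 to 0.71, Fcer1g from -0.62 to 1.19, Gzmb from -0.49 to 0.64, Kdr from -0.47 to 0.19 and Ptprc from -0.33 to 0.63. Cd200r3 ranged from -0.28 to 1.42 and Il1rl1 from -2.25 to 0.20, and for both the reversal came without K-Ras replicate 1. The sign of Csf2rb, Gzmb and Kdr reversed without K-Ras replicate 1 or K-Ras Mll4-/- replicate 2, and that of Fcer1g and Ptprc without K-Ras replicate 2 or K-Ras Mll4-/- replicate 1. Gzmb was 0.068 with the replicate block and 0.091 with limma-voom. Fcer1g was -0.050 with total-count scaling and -0.044 with upper-quartile scaling. Except where fewer samples entered, the cause was not tested. Depth limits Tpsb2, Tpsab1, Fcer1a and Cma1, each with at most 23 reads in a sample, among other genes with few reads.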
